A study of Klebsormidium nitens with 4 samples.

Results

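The genes described here are 39 very abundant transcripts of Klebsormidium nitens that were moderately higher in high light than in low light. They were chosen by their FPKM (fragments per kilobase of exon, scaled by the number mapped) among the 17290 genes of the series. A gene was taken where its mean FPKM in high light was at least 500, where the ratio of high to low light means, each with 1 added, was at least 1.25 and under 4, and where both high light values lay above both low light values. Genes whose identifiers stand in the study's text were left out. Of the 190 genes with at least 500 FPKM in high light, 41 fell in the ratio range, and all 41 had high light values above both low light values. The study names 2 of these, LHCSR and FtsH2, which left 39. Level, ratio and separation of the libraries are therefore what selected these genes, and they are given as descriptions.

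As a charophyte, this filamentous alga belongs to the lineage of green algae closest to land plants. All cultures were of strain NIES-2285, and were grown with light as the energy source in photobioreactors at 20 °C, with 1% CO2 in the air supply. The high light group comprised 2 cultures that received 1500 µE m-2 s-1 for 3 h, and the low light group comprised 2 cultures kept at 50 µE m-2 s-1. Polyadenylated RNA was read in stranded libraries of 50 nt reads, with a depth of about 17 M reads per sample according to the labels.

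Light beyond what photosynthesis can use leads algae and plants to adjust the RNA of genes for energy dissipation, repair of photosystem II, removal of reactive oxygen species and protein folding. The most abundant nuclear transcripts of a photosynthetic cell are commonly those for light harvesting, carbon fixation, translation and the cytoskeleton. A transcript that is already abundant can take up much more of the RNA pool through a small relative change than a rare transcript does through a large one. FPKM are a relative measure, so that more RNA of a gene per cell and less RNA of the other genes cannot be told apart. The sources used here pair no product name with any of the 39 genes, and each is therefore called by its identifier and described by its values alone.

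The FPKM of all genes summed to 620285 and 620013 in the high light libraries and to 660467 and 657079 in the low light libraries, so that the mean total of high light was 0.941 times that of low light. Features of the plastid genome took 2.05% and 0.0739% of the total in high light libraries 1 and 2, and 0.0462% and 2.77% in low light libraries 1 and 2. High light library 1 and low light library 2 thus stood apart in plastid RNA, once in each condition. With the features of both organelle genomes left out of the total, the 39 genes held 7.25% in high light and 3.46% in low light, close to the values with them.

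The 39 genes took 2.10 times as large a share of the transcriptome in high light as in low light. In high light their FPKM summed to 44041 and 44903, against 23079 and 21816 in the low light libraries. As shares of the total this was 7.10% and 7.24% in high light, against 3.49% and 3.32% in low light. The mean share was 7.17% ± 0.1005 (SD, n = 2) in high light and 3.41% ± 0.123 (SD, n = 2) in low light, a difference of 3.76 percentage points. The spread between cultures of 1 condition was small beside this difference. The choice of the genes fixes the direction of the difference. It also bounds its size, since each gene's ratio had to be at least 1.25 and under 4. Separate libraries were required in each gene, which limits the spread beside the difference, so both are given as descriptions.

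Set against the other genes of at least 500 FPKM in high light, the 39 genes together gained more of the transcriptome than the 13 strongly induced ones together. These sets differ in size, so the order of their totals is not an order of gains per gene. The 13 genes with a ratio of at least 4 held 2.62% and 2.70% in the high light libraries, against 0.295% and 0.258% in the low light libraries, a gain of 2.38 points. The 101 genes with a ratio between 0.8 and 1.25 held 22.0% and 22.3% in high light, against 22.8% and 23.0% in low light. The 35 genes with a ratio of 0.8 or less, which include plastid features, held 9.51% and 7.88% in high light, against 13.9% and 15.8% in low light. Their mean share differed by -6.17 points, high light minus low light, and their libraries were farther apart within a condition than those of the 39 genes. The groups were cut on the same ratio, so the order of their gains was not tested.

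**Figure D1:**
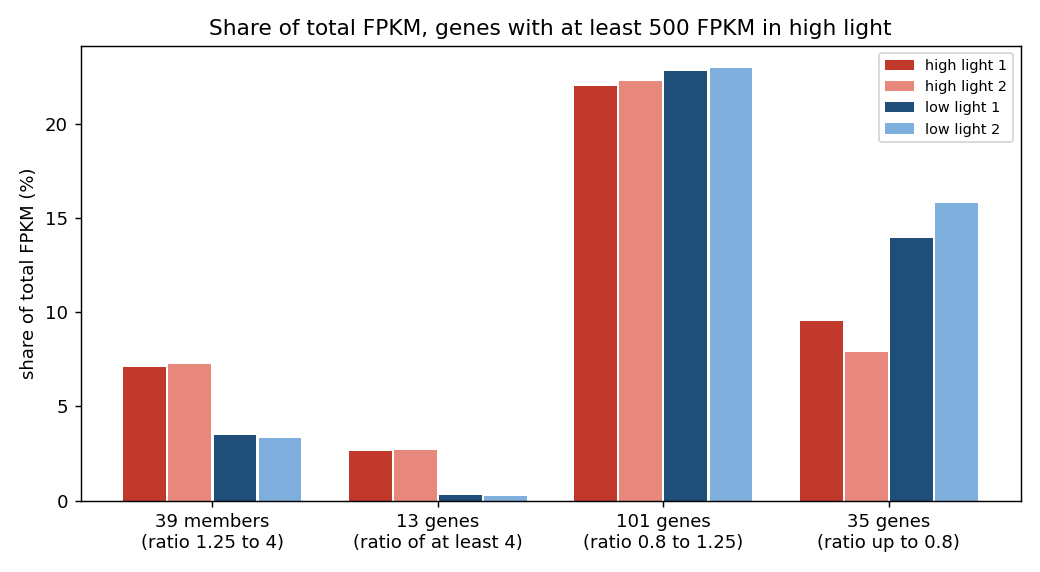
Bars give the percentage of each library's total FPKM taken by 4 groups of genes with at least 500 FPKM in high light, with the high light libraries in red on the left and the low light libraries in blue on the right of each group. The 39 genes held 7.10% and 7.24% in high light, against 3.49% and 3.32% in low light.

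The gain in share was spread over several genes. The most abundant of them, kfl00213_0080, accounted for 12.9% of the gain, the 3 genes with the largest gains for 30.1% and the 7 most abundant genes for 47.3%. The 8 genes with the largest gains were needed to reach 50% of it. Without kfl00213_0080, the other 38 genes held 6.02% and 6.14% in high light, against 2.87% and 2.74% in low light, a ratio of 2.17. The 7 most abundant genes held 3.28% and 3.35% in high light, against 1.57% and 1.495% in low light, and the other 32 genes held 3.82% and 3.89% in high light, against 1.92% and 1.82% in low light. The ratio of shares was similar at the top of the abundance order and below it, 2.16 for the 7 and 2.06 for the 32.

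The ratios fell into a lower and a higher range. The ratio was between 1.25 and 1.83 in 19 genes and between 2.20 and 3.70 in the other 20, with no gene between 1.83 and 2.20. The genes of the lower range were the more abundant ones in low light, with a median of 573 FPKM, against 236 FPKM for those of the higher range. In high light their medians were closer, 831 FPKM and 654 FPKM. The 20 genes of the higher range supplied 59.2% of the gain in share and the 19 of the lower range 40.8%. A gene of low FPKM in low light could enter the set only with a large ratio, since at least 500 FPKM in high light was required.

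All 39 genes stood higher in the abundance order of high light than in that of low light. Ranked by mean FPKM among all 17290 genes, with 1 for the most abundant, they lay between ranks 3 and 187 in high light, with a median of 144, and between ranks 10 and 648 in low light, with a median of 191. The gain in rank ranged from 7 to 468 places, with a median of 74, and was at least 100 places in 19 genes. Among the 101 abundant genes with a ratio between 0.8 and 1.25, the change in rank ran from -39 to 30, with a median of -2. Because ranks near the top are widely spaced in FPKM, the places gained do not follow the gain in share. The gene with the largest gain in share, kfl00213_0080, had the smallest gain in rank. With 190 genes at a mean of at least 500 FPKM in high light, the choice itself places all 39 within the first 190 ranks there. The required ratio also favours a gain in rank, so the ranks are given as descriptions.

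The upper part of the abundance order held more of these genes in each high light library than in either low light library. Among the 20 most abundant genes of a library there were 3 and 4 of them in the high light libraries, against 1 and 1 in the low light libraries. Among the 50 most abundant there were 7 and 7 in high light, against 1 and 1 in low light. Between ranks 51 and 100 few were added in high light, with 8 and 9 among the first 100, against 4 and 3 in low light. All 39 were among the 200 most abundant genes of both high light libraries, against 20 in each low light library. The minimum of 500 FPKM in high light largely fixes this count of 39, and the required ratio favours higher counts in high light. In low light 22 of the 39 were under 500 FPKM, and 17 were already at or above it.

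**Figure D2:**
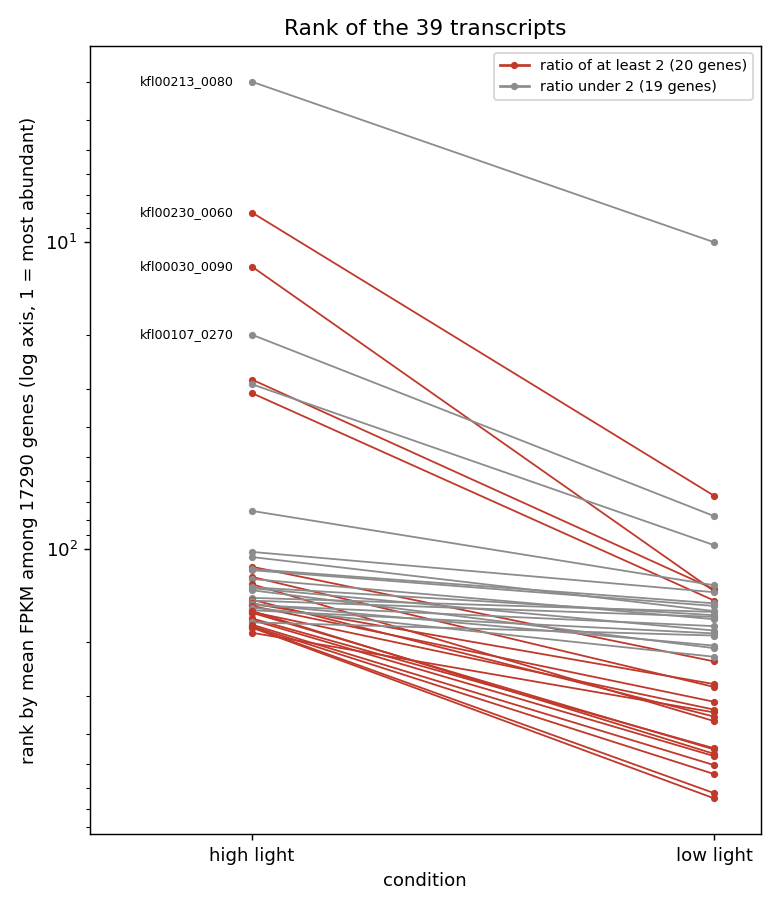
Each line joins the rank of 1 gene by mean FPKM in high light (left) and low light (right) on a log axis, with 1 for the most abundant of 17290 genes. Lines of the 20 genes with a ratio of at least 2 are red and those of the other 19 are grey, and all 39 lie at a better rank in high light.

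Replicate cultures were close for these genes. The high light libraries differed by a median of 3.34% of their mean and the low light libraries by a median of 5.45%. In all 39 genes the gap between the lower high light value and the higher low light value exceeded the larger of the differences between replicates, by 1.94 to 66.3 times, with a median of 10.01 times. The gap was smallest, at 1.94 times, in kfl00134_0040, and largest in kfl00460_0030. Since separation of the libraries was a condition of the choice, this describes its width only.

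**Figure D3:**
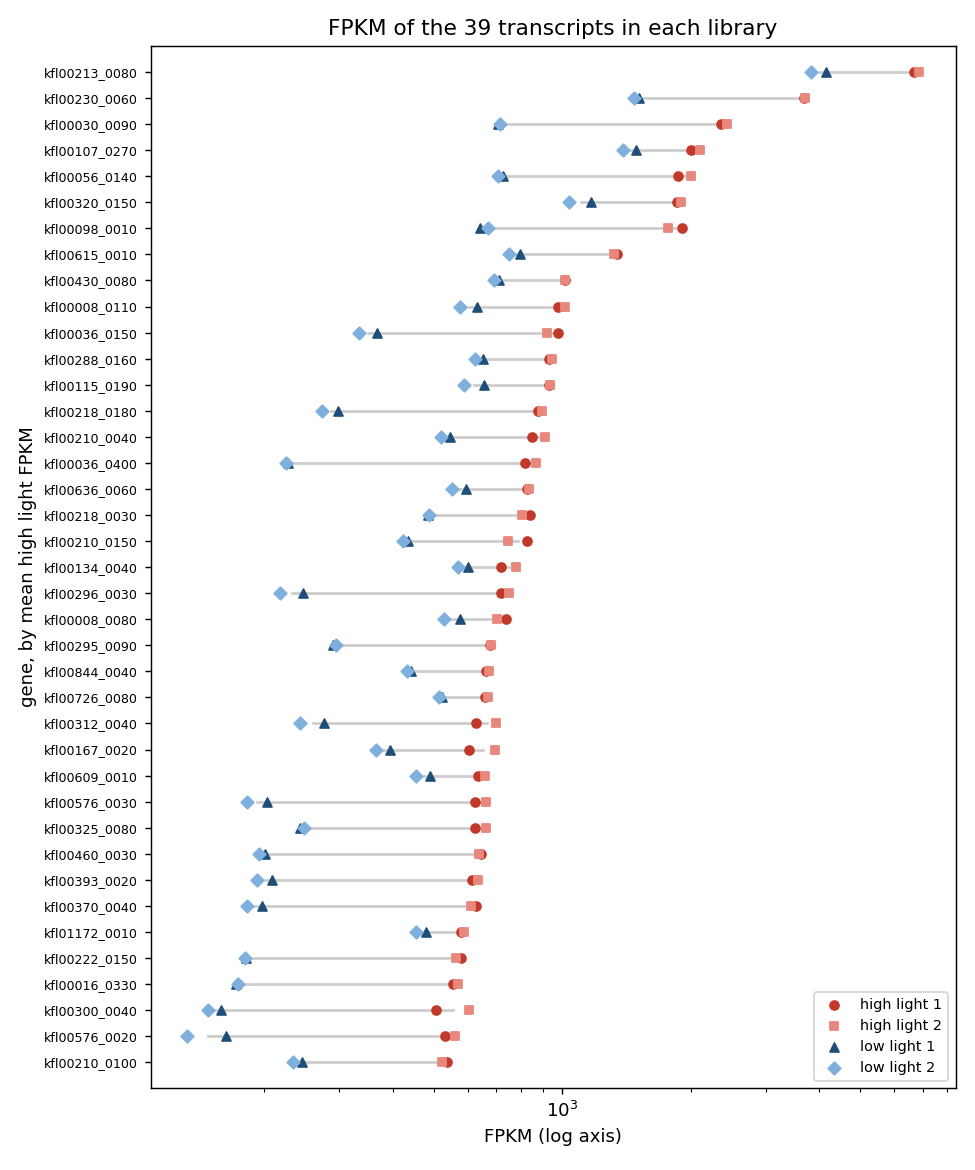
FPKM of each of the 39 genes on a log axis, ordered by mean high light FPKM, with high light libraries as red circles and squares and low light libraries as blue triangles and diamonds; the grey line joins the means. In each gene both high light points lie above both low light points.

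The most abundant of the 39, kfl00213_0080, lies at positions 46298 to 48664 of scaffold 213 of assembly ASM70883v1. In high light it reached 6693 and 6858 FPKM, against 4149 and 3834 FPKM in the low light libraries, a ratio of 1.70. It was the gene at rank 3 in high light and at rank 10 in low light, and held 1.08% and 1.11% of the total in high light, against 0.628% and 0.583% in low light. Within the set its portion was smaller in high light, 15.2% and 15.3% of the summed FPKM of the 39 genes, against 18.0% and 17.6% in low light. The libraries did not overlap in any of these measures.

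The next in abundance was kfl00230_0060, at positions 54659 to 58801 of scaffold 230. It was at 3681 and 3701 FPKM in high light, against 1511 and 1470 FPKM in low light, a ratio of 2.48. Its rank was 8 in high light and 67 in low light. In kfl00030_0090, at positions 65850 to 71739 of scaffold 30, the values were 2350 and 2430 FPKM in high light, against 708 and 714 FPKM in low light. Its ratio of 3.36 was among the 8 largest of the set, and its rank was 12 in high light and 137 in low light. Both genes were activated in the limma fit described further on, with log2 fold changes of 1.58 and 1.87.

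Of the next 4 genes in abundance, a pair had ratios under 2 and a pair had ratios over 2. FPKM of kfl00107_0270 were 2006 and 2099 in high light, against 1488 and 1390 in low light, a ratio of 1.43. FPKM of kfl00320_0150 were 1857 and 1895 in high light, against 1171 and 1039 in low light, a ratio of 1.70. These genes were already abundant in low light, at ranks 78 and 97. By contrast kfl00056_0140 had 1865 and 2007 FPKM in high light, against 727 and 708 FPKM in low light, a ratio of 2.70. A similar pattern was seen in kfl00098_0010, with 1913 and 1773 FPKM in high light, against 641 and 671 FPKM in low light, a ratio of 2.80. Their ranks were 28 and 31 in high light, close to that of kfl00320_0150 at 29, whereas in low light they were at 135 and 147.

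Below these, kfl00615_0010 had 1341 and 1323 FPKM in high light, against 794 and 749 FPKM in low light, a ratio of 1.73. The remaining genes of the 12 most abundant were near 1000 FPKM in high light. FPKM of kfl00430_0080 were 1017 and 1016 in high light, against 710 and 692 in low light, and those of kfl00008_0110 were 980 and 1016 in high light, against 631 and 575 in low light. FPKM of kfl00036_0150 were 978 and 923 in high light, against 367 and 333 in low light, and those of kfl00288_0160 were 929 and 946 in high light, against 652 and 625 in low light. Only kfl00036_0150 of these had a ratio over 2, at 2.71, and its rank of 114 in high light compared with 232 in low light. The ranks of kfl00430_0080 were closer, 102 in high light and 138 in low light.

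The genes with the largest ratios were mostly near the lower limit of abundance. Exceptions were kfl00030_0090, described above, and kfl00036_0400, which had the largest ratio of the set. FPKM of kfl00036_0400 were 817 and 868 in high light, against 228 and 226 in low light, a ratio of 3.70. It lies on scaffold 36 at positions 300583 to 305865, on the same scaffold as kfl00036_0150. FPKM of kfl00576_0020 were 532 and 560 in high light, against 163 and 132 in low light, a ratio of 3.68. FPKM of kfl00576_0030 were 626 and 662 in high light, against 203 and 182 in low light, a ratio of 3.33. In kfl00300_0040 the values were 506 and 604 FPKM in high light, against 159 and 148 FPKM in low light, a ratio of 3.60. Its high light libraries differed by 17.6% of their mean, the largest difference between high light libraries among the 39 genes.

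Ratios between 3.23 and 3.25 were shared by 3 further genes. FPKM of kfl00370_0040 were 628 and 610 in high light, against 198 and 182 in low light. FPKM of kfl00016_0330 were 553 and 570 in high light, against 171 and 174 in low light. FPKM of kfl00460_0030 were 644 and 638 in high light, against 201 and 194 in low light. In all 3 the replicates were close beside a separation of more than 3-fold.

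The largest gains in rank were those of kfl00576_0020, at rank 180 in high light and 648 in low light, and of kfl00300_0040, at rank 179 in high light and 623 in low light, whose level and rank are uncertain because its gene record is only 14 bp long. They were followed by kfl00016_0330, at rank 178 in high light and 540 in low light, and by kfl00222_0150, at rank 176 in high light and 505 in low light. FPKM of kfl00222_0150 were 578 and 564 in high light, against 181 and 180 in low light. Genes of the lower range of ratios gained a median of 36 places, from 7 to 74, and genes of the higher range a median of 189 places, from 59 to 468. The gain of 329 places in kfl00222_0150 went with a ratio of 3.15.

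The genes on each side of the limits of the choice were close at 500 FPKM and at the lower limit of the ratio, and farther apart at the upper limit. Just inside 500 FPKM in high light were kfl00210_0100, kfl00576_0020 and kfl00300_0040, with mean FPKM of 529, 546 and 555 in high light, against 239, 147 and 153 in low light. Just outside were kfl00093_0210, kfl00130_0310 and kfl00635_0030, with 482, 471 and 459 in high light, against 383, 130 and 119 in low light. Just inside the lower limit of the ratio were kfl01172_0010, kfl00726_0080 and kfl00134_0040, at 1.25, 1.28 and 1.28, and just outside it kfl00210_0030, kfl00096_0060 and kfl01284_0020, at 1.20, 1.20 and 1.15. Just inside the upper limit were the ratios of 3.70, 3.68 and 3.60 of kfl00036_0400, kfl00576_0020 and kfl00300_0040, and just outside it those of kfl00091_0240, kfl00404_0080 and kfl00432_0030, at 4.07, 4.73 and 5.93. Of these, kfl00432_0030 was at 1909 and 2029 FPKM in high light, against 367 and 295 FPKM in low light.

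The genes of the set that the rule for named genes did not take had means of 623 to 932 FPKM in high light and ratios of 1.31 to 3.14, and there were 15 of them. The genes left out because the study names them would have added to the set at its top and at its middle. LHCSR, a protein of energy dissipation in algae and mosses, was at 5646 and 6359 FPKM in high light, against 2152 and 1901 FPKM in low light. Its rank was 4 in high light and 31 in low light, and in high light it came next after kfl00213_0080. FtsH2, a thylakoid protease of photosystem II repair, was at 633 and 667 FPKM in high light, against 283 and 296 FPKM in low light, and at rank 156 in high light and 276 in low light.

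The calls of the study's type, activated where the log2 fold change reached 1 with the adjusted p below 0.05, divided the 39 genes. In limma on quantile-normalized log2(FPKM + 1), with Benjamini-Hochberg adjustment over all 17290 genes, 20 of the 39 were activated, where 691 genes or 4.00% of all were. This count is no finding, because the genes were selected on the same contrast. A further 9 had an adjusted p below 0.05 with a log2 fold change under 1, so that 29 passed the p threshold in the direction of high light, as 7.06% of all genes did. All 39 had both high light values above both low light values, as 18.5% of all genes did. The other 10 did not reach the p threshold. The median log2 fold change of the 39 was 1.11, against 0 for all genes.

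The 20 activated genes were the 20 of the higher range of ratios. A log2 fold change of 1 stands for a ratio of 2, so the threshold on size largely fixes this match. Among the named genes, limma gave kfl00222_0150 the smallest adjusted p of the set, 0.00791, at a log2 fold change of 1.54 (standard error 0.01). The largest log2 fold changes were 1.87 (standard error 0.15, adjusted p = 0.038 in limma) in kfl00030_0090 and 1.80 (standard error 0.12, adjusted p = 0.0318 in limma) in kfl00576_0020. Just over the threshold lay kfl00210_0100, with 1.00 on the log2 scale and an adjusted p of 0.0145 in limma. Genes at the lower limit of the ratio had small log2 fold changes, 0.20 in kfl01172_0010, 0.24 in kfl00726_0080 and 0.22 in kfl00134_0040, of which only that of kfl00726_0080 passed the p threshold, at a limma adjusted p of 0.0146. The calls depended on every library, since 2 of the 39 were activated without high light library 1 and 2 without high light library 2, and 3 without low light library 1 and 3 without low light library 2.

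The most abundant gene was the exception among the calls. In kfl00213_0080 the log2 fold change was 1.26 (standard error 0.15) with a limma adjusted p of 0.0554, so it was the 1 gene of the set whose log2 fold change reached 1 without the gene being activated. It was activated with genes under a mean of 1 FPKM left out, where the limma adjusted p was 0.00932. Over the settings with all 4 libraries and no block, that p ranged from 0.00932 to 0.0599. Without low light library 1 its log2 fold change was 1.31, and without low light library 2 it was 1.16. In those fits kfl00213_0080 had no spread between replicates, since quantile normalization set its high light values equal. Without quantile normalization its log2 fold change was 0.76, with a limma adjusted p of 0.0344, which falls under the threshold on size. Quantile normalization gives the gene of a given rank the same value in every library, and at the top of the order neighbouring ranks lie far apart. As rank 3 in both high light libraries, kfl00213_0080 was set to 12.91 on the normalized log2 scale in both, whereas its log2(FPKM + 1) were 12.71 and 12.74. In the low light libraries, at ranks 10 and 14, it was set to 11.80 and 11.48, whereas its log2(FPKM + 1) were 12.02 and 11.90.

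The shift by the normalization was upward only in the most abundant genes of the set. The quantile-normalized log2 fold change was larger than that without normalization in 6 genes, all among the 8 most abundant, by up to 0.50 in kfl00213_0080 and 0.28 in kfl00230_0060. It was smaller in the other 33, by at most 0.17. Among these the shift broadly deepened as abundance fell, from -0.02 in kfl00056_0140 through -0.06 in kfl00430_0080 to -0.17 in kfl00036_0400. In genes less abundant than kfl00036_0400 it did not follow abundance further, with -0.09 in kfl00576_0020. The median log2 fold change of the 39 was 1.11 with quantile normalization, 1.14 without normalization and 1.36 with FPKM scaled to the same median. Without normalization the genes above 0 in all 4 libraries had a median log2 fold change of -0.22. All 39 genes had a positive log2 fold change under each scaling tried. Without normalization the choice of the genes fixes this sign, so it is given as a description.

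**Figure D4:**
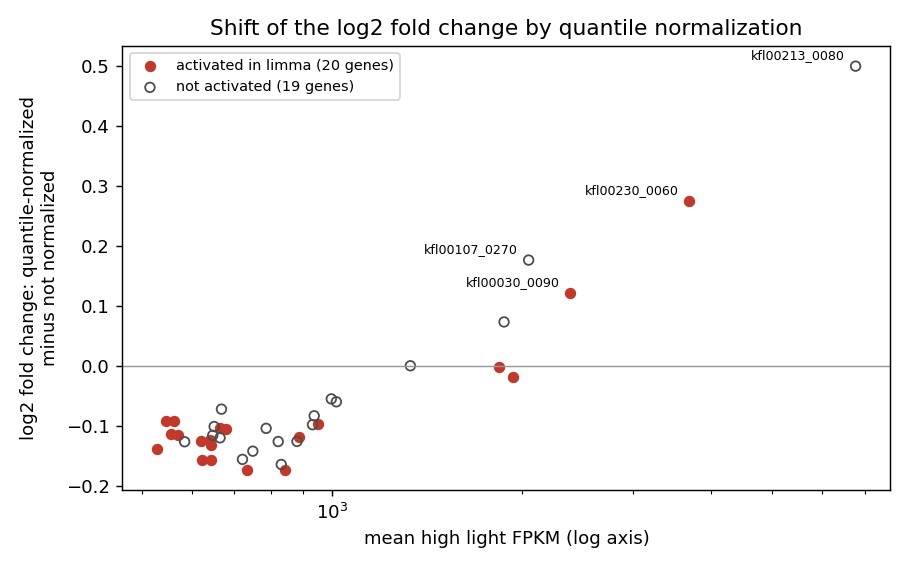
For each of the 39 genes, the difference between the log2 fold change with quantile normalization and that without is plotted against mean high light FPKM on a log axis, with the 20 activated genes filled in red and the other 19 open. The difference reaches 0.50 in kfl00213_0080 and is below 0 in 33 genes, down to -0.17.

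The gene records of the 39 genes had a larger median span than those of the abundant genes outside the ratio range. Genomic span, from first to last base of the record with introns included, was not used in the choice. It was taken from the reference gene table of assembly ASM70883v1, in which all 39 were found. Its median was 4410 bp in the 39 genes, with quartiles of 3320 and 5598 bp. The medians were 2702 bp in the 13 genes with a ratio of at least 4, 3008 bp in 100 genes with a ratio between 0.8 and 1.25, and 2798 bp in 31 genes with a ratio of 0.8 or less. The lower quartile of the 39 genes thus lay above the median of each of these 3 groups. LHCSR and FtsH2, the genes of the same ratio range that were left out, had records of 4510 to 5393 bp, also above the medians of these 3 groups. Over 10834 nuclear genes with a mean of at least 1 FPKM the median was 4817 bp, above that of the 39 genes and of the 3 groups. The median was 4276.5 bp in the higher range of ratios and 4745 bp in the lower range. No test was run on these medians, and lengths of transcripts or proteins were not analysed here.

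**Figure D5:**
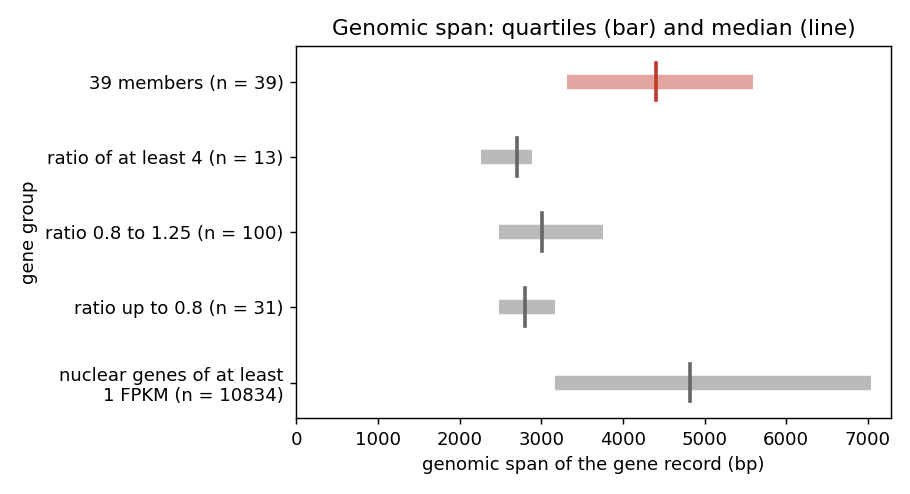
Bars run between the quartiles of genomic span in bp and the vertical line marks the median, for the 39 genes, for the 3 other groups of genes with at least 500 FPKM in high light and for nuclear genes with a mean of at least 1 FPKM. The 39 genes have a median of 4410 bp, against 2702 to 3008 bp in the 3 groups outside the ratio range.

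One gene record stood apart in its span. That of kfl00300_0040 covers 14 bp, positions 30575 to 30588 of scaffold 300, which is shorter than a 50 nt read, as 94 protein-coding records of the table are. FPKM divide by length, so a level computed over so short a record cannot be compared with that of other genes, nor can its rank or its place above 500 FPKM, and the length behind the deposited value is not known here. The record that follows after 788 bp, kfl00300_0045, was at 407 and 428 FPKM in high light, against 105 and 96.6 FPKM in low light. It was activated at a log2 fold change of 1.97 (adjusted p = 0.0197 in limma). The locus after it, kfl00300_0050, was activated too, at 110 and 109 FPKM in high light, against 11.5 and 15.4 FPKM in low light. The ratio of kfl00300_0040 itself does not depend on the length.

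The 39 genes were spread over the genome. They lay on 33 scaffolds, of which 28 held a single gene of the set, scaffolds 8, 36, 218 and 576 held 2 each, and scaffold 210 held 3. Only kfl00576_0020 and kfl00576_0030 were consecutive loci. In scaffold 210, kfl00210_0040 follows kfl00210_0030, the gene just under the lower limit of the ratio, which was at 1072 and 1186 FPKM in high light, against 956 and 919 FPKM in low light.

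The neighbours of the set were as a group far less abundant than the set itself. The direct neighbours, before and after, that were not in the set numbered 68, at a median distance of 838.5 bp. Neighbours were taken from the records of the reference gene table, so a gene of the series without a record there could not appear. The median of their mean FPKM was 17.7 in high light and 18.1 in low light, with a median ratio of 0.961, and 59 of them (86.8%) were under 100 FPKM in both conditions, as were 92.5% of all genes. By limma 6 of the 68 (8.82%) were activated, where 4.00% of all genes were, and 1 was repressed. Both high light values lay above both low light values in 18 of the 68 (26.5%), as in 18.5% of all genes, and below them in 27 (39.7%), as in 33.1% of all genes. These shares were not compared by a test. The record of 1 neighbour, kfl00844_0030, overlaps that of kfl00844_0040 (a distance of -516 bp), and whether reads of the overlap were counted for either gene was not tested.

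Among the loci found in the reference gene table, a run of 4 activated loci lay on scaffold 576. No locus numbered kfl00576_0040 was among them. Ahead of the pair, kfl00576_0010 was at 123 and 109 FPKM in high light, against 7.48 and 3.50 FPKM in low light. After it, kfl00576_0050 was at 300 and 314 FPKM in high light, against 130 and 113 FPKM in low light. All 4 genes were activated, at limma adjusted p of 0.0457, 0.0318, 0.0213 and 0.0372 in the order of their positions. The next locus, kfl00576_0060, was at 18.0 and 23.9 FPKM in high light, against 14.1 and 13.6 FPKM in low light, and was not activated. The pair spans positions 2392 to 25874 of the scaffold, and the record of kfl00576_0030, at 14092 bp, is the longest of the 39. The neighbours described here, and the genes of scaffolds 210 and 300, were chosen after their values had been seen.

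The other 3 activated neighbours were on scaffolds 16, 213 and 167. They included kfl00016_0340, at 173 and 148 FPKM in high light, against 36.6 and 44.6 FPKM in low light, and kfl00213_0090, at 129 and 138 FPKM in high light, against 63.6 and 55.3 FPKM in low light. The last of them, kfl00167_0030, was at 8.15 and 10.2 FPKM in high light, against 0.931 FPKM in low light library 1 and a listed value of 0 in low light library 2. The repressed neighbour, kfl00320_0140, is listed at 0 in both high light libraries, against 1.85 and 2.16 FPKM in low light. It precedes kfl00320_0150, whose FPKM were higher in high light, by 841 bp.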

How the data were processed

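RNA-seq of K. nitens was analysed in 4 libraries, from 2 high light and 2 low light cultures that the labels call independent biological replicates. The authors ran their MARACAS pipeline, in which FastQC checked the reads, HISAT2 mapped them and StringTie gave gene levels. Genome and annotation were those of version 1.0, and versions of the tools are not given in the sources used here. As deposited, the table gives 17290 genes in FPKM, not quantile-normalized. Counts cannot be had from it, so that the depth behind a single gene is unknown and no counting interval is given. Each column was matched to its sample by name.

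Shares are the FPKM of a group over the total FPKM of the library, and ranks are over all genes by mean FPKM. With 2 libraries per condition an exact two-sided permutation test cannot go below p = 0.333, so none was run. For the calls, 1 was added to the deposited FPKM, the log2 values were quantile-normalized, and limma 3.58.1, run in R 4.3.3, fitted the difference of high minus low light with moderated variance and Benjamini-Hochberg adjustment over all genes, by the study's thresholds of 1 (log2) and 0.05. Tables and plots were made with pandas 2.3.3, numpy 2.4.6 and matplotlib 3.10.9 in Python 3.11.15. Alternatives covered the FPKM minimum, scaling, pseudocount, a filter on low values, variance trend, replicate block and each library left out.

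Positions and spans come from the reference gene table of ASM70883v1, whose first scaffold carries the accession that the study gives for version 1.0. It matched 16199 features by locus number. The genes, groups and rules were chosen with earlier results of these data known. The rule for named genes took the 12 highest in high light FPKM, the 8 largest ratios, the 6 largest gains in rank, the 3 genes on each side of every limit, and consecutive loci, which named 24 of the 39. Sequence, GC content, promoter motifs and near-identical copies, also planned, were not analysed here. Reads shared between near-identical genes could split or add to a value, and this was not tested.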

Additional observations from a re-analysis of the deposited data

How the results depend on the processing

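The number of genes chosen depended on the FPKM minimum, with 122 at a minimum of 250 and 9 at a minimum of 1000. With every library scaled to the same total 42 genes were chosen, including all 39, and with scaling to the same median 51, including 36 of the 39. With each library left out the number ranged from 38 to 41, and 37 to 39 of the genes were shared. The share of total FPKM was 7.25% in high light and 3.46% in low light without organelle features, and 7.19% in high light and 3.42% in low light with the total taken over genes above 0 in all 4 libraries. The median gain in rank ranged from 71 to 79 with each library left out. The calls rested on both libraries of each condition. Of the 39 genes, 2 to 3 were activated and 2 to 5 had an adjusted p below 0.05 in limma with each library left out, and among all genes 141 to 180 were activated and 75 to 242 repressed. In these fits the lone library is assumed to vary like the other condition. Calls were kept without either high light library in kfl00030_0090 and kfl00460_0030, and without either low light library in kfl00222_0150 and kfl00230_0060. In these genes the remaining pair had equal or nearly equal quantile-normalized values, so the kept calls do not measure stability. With all 4 libraries the low light pair was at 9.56 and 9.56 in kfl00030_0090 and at 7.69 and 7.69 in kfl00460_0030. The high light pair was at 9.08 and 9.10 in kfl00222_0150 and at 12.07 and 12.07 in kfl00230_0060. With the filter on low values limma called 1212 genes activated and 1222 repressed, and without normalization 515 and 876, in place of 691 and 607.

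With the replicate number as a block, limma called 0 of the 39 genes activated, 0 at an adjusted p below 0.05, and 0 genes activated and 0 repressed in all. The smallest adjusted p was then 0.0657, and 31 of the 39 and 4365 of all genes were at an unadjusted p below 0.05. Over 11201 genes, deviations from the group means of libraries with the same number correlated at -0.21, and at 0.039 without organelle features, so the numbers do not pair the libraries by this measure. A crossed pairing, chosen after seeing the data, also gave 0 calls in each of these counts, with 37 of the 39 and 4383 of all genes at an unadjusted p below 0.05. A block takes away a residual degree of freedom under either pairing, and how much this alone lowers the calls was not tested. Under the other settings of limma (pseudocount of 0.1, filter, no normalization, median scaling, cyclic loess, variance trend) 20 to 22 of the 39 were activated and 29 to 39 had an adjusted p below 0.05. No log2 fold change of a named gene changed sign, which the choice of the genes already fixes without normalization. Of the 24 named genes, 1 gained the call with the filter and 1 with median scaling.

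FPKM without counts limit these values, since the error known is the spread between 2 cultures of a condition. The lists were chosen on the contrast that the calls test, so the calls describe how the set falls and not whether it differs.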
